A study of Homo sapiens with 15 samples.

Results

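The genes described here are 44 genes of the lysosome: 12 proteases, 11 glycosidases, 4 enzymes that remove sulfate groups, 4 lipid and thioester hydrolases, 2 activator proteins, 8 membrane or cholesterol-export proteins and the 3 transcription factors TFEB, TFE3 and MITF. They were taken as a fixed list of symbols, chosen with earlier results of these data known. All 44 were matched to 1 row each among the 60670 genes of the count table. The protease CTSH had at most 4 counts in any library and was not tested, so 43 of the 44 were among the 18563 genes tested.

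RNA was sequenced from HT-1080, a human fibrosarcoma line, in 5 groups of 3 libraries. All cells grew in tet-free serum. Cycling cells received the vehicle DMSO and carry the time label 6 h. The other 4 groups were senescent: a dominant negative mutant of TRF2, a protein that caps telomeres, had been expressed for 6 days, and the cells then received DMSO for 6 h, 1 uM GNF-7 for 6 h, DMSO for 24 h or 1 uM GNF-7 for 24 h. GNF-7 is a kinase inhibitor that the study's title links to GCN2, a kinase activated by amino acid shortage. There were no cycling cells with GNF-7 among the libraries. Which promoter drove the mutant, and whether cycling cells carried the construct, are not given in the sources used here. Replicates are labelled biological, but nothing says that they came from separate cultures, so p-values measure the spread between these libraries. In bulk RNA, fewer cells of a kind and less RNA per cell cannot be told apart.

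Lysosomes are acidic compartments in which hydrolases break down proteins, sugar chains, sulfated polymers and lipids. Membrane proteins of the lysosome protect its wall and export cholesterol and ions. TFEB, TFE3 and MITF are related transcription factors that bind E-box sequences with the core CACGTG in the promoters of lysosomal genes, and mTORC1, recruited to the lysosome by Rag GTPases, holds them in the cytoplasm when nutrients are plentiful. A large lysosomal compartment and high beta-galactosidase activity, which comes from the product of GLB1, are known traits of senescent cells.

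Total counts ranged from 25991007 to 32323393 per library. The share of counts in the 37 mitochondrial genes differed between groups, with medians of 4.20% in cycling cells, 11.7% and 13.8% in senescent cells after 6 h of vehicle or GNF-7, and 16.96% and 23.2% after 24 h. With those genes left out before scaling, 39, 22, 33, 24 and 20 of the 43 lysosomal genes were called in the 5 comparisons taken up in turn here, against 39, 20, 32, 25 and 20 with them. TERF2, the gene of TRF2, was at 58.2 ± 3.65 CPM (counts scaled to a common library size, SD, n = 3) in cycling cells and at 287 ± 8.17 in senescent cells in vehicle at 6 h. With GNF-7 for 6 h it was at 222 ± 8.599 CPM, after 24 h of vehicle at 220.0 ± 7.26 CPM and after 24 h of GNF-7 at 132 ± 5.38 CPM, and the part of these differences in the GNF-7 values was not tested. Of 8 mesenchymal markers, THY1 had no count and the sum of the list was 6154 to 8835 CPM per library, lowest after 24 h of GNF-7 (6154 to 6586 CPM). The 6 epithelial markers summed to at most 2.67 CPM and 7 leukocyte and macrophage markers to 3.02 to 5.07 CPM. The 4 melanocyte markers, a lineage in which MITF is known to act, summed to 8.29 to 12.5 CPM. MLANA and TYR had no count, PMEL had a mean of 1.06 CPM, and DCT, at a mean of 9.46 CPM, was called higher in senescence (0.32) and with GNF-7 at 24 h (0.26). The senescence call of DCT was lost without senescent vehicle 6 h replicate 1. Its 24 h call was lost with no filter on low counts and without vehicle 24 h replicate 1 or 3 or GNF-7 24 h replicate 3. The part of the melanocyte markers in the values of MITF was not tested.

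The share of all counts that fell on the 44 genes was 0.437% to 0.442% in cycling cells and 0.970% to 1.11% in the 12 libraries of senescent cells. On a scale per length (CPM per kb of exon), PSAP, the precursor of the saposins that help hydrolases reach lipids, had the highest level in every group, from 256 in cycling cells to 1118 in senescent cells after 24 h of GNF-7. In cycling cells it was followed by CD63 (108), CTSZ (102), CTSB (74.5) and LAMP1 (62.8). The lowest levels were those of CTSH, CLN3 and CTSS. Of the exon length of CLN3, 25.16% overlaps another gene on the same strand, so its level is uncertain.

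Promoters are shown because the TFEB family binds a known sequence. RefSeq promoters of GRCh38.p14, from 250 bases before to 50 after the first listed start of a gene, were matched for 31 of the 44 genes. The palindrome CACGTG, which reads the same on both strands, was present in 9 of the 31 (29.03%), namely CTSA, CTSD, CTSF, GAA, NEU1, LAMP1, CD63, MCOLN1 and CLN3. The share over all 27305 promoters was 7.435%. The longer forms that contain it were rarer: TCACGTGA was in 5 of the 31 (16.13%) against 1.036% of all, and the 10-base form, with GT before the core and AC after it, was in 2 (6.452%), GAA and MCOLN1, against 0.3809%. With any listed start counted, 10 of the 31 had CACGTG against 8.775% of all genes. A match describes the letters in the window and is no evidence of binding.

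The 250 bases before the start are printed for 4 hydrolase genes that hold the motif, 5′ to 3′ on the gene's own strand, with the motif in capitals. They are GAA at chr17:80101331-80101580 (+ strand), CTSF at chr11:66568607-66568856 (- strand), CTSD at chr11:1763928-1764177 (- strand) and NEU1 at chr6:31862822-31863071 (- strand). In GAA both capital runs are the full 10-base form.
GAA promoter: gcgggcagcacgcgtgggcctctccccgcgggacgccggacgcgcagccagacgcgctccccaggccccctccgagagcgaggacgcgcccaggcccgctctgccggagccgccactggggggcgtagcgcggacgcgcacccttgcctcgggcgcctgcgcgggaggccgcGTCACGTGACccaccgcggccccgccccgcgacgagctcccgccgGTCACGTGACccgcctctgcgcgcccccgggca
CTSF promoter: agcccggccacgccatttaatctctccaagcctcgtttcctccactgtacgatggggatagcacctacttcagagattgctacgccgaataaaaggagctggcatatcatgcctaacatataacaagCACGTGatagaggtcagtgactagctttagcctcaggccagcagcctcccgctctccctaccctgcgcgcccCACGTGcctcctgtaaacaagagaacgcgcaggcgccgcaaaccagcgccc
CTSD promoter: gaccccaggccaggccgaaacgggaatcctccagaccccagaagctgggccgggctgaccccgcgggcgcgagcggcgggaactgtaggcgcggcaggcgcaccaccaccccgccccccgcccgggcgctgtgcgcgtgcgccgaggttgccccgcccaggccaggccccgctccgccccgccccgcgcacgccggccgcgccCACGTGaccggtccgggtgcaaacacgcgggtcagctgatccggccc
NEU1 promoter: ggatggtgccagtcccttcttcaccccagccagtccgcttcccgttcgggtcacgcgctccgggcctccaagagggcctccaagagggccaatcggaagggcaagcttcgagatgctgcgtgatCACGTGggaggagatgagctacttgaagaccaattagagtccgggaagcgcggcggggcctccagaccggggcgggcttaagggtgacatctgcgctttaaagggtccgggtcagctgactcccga

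Senescent cells in vehicle were compared with cycling cells in vehicle, both at 6 h. Of the 43 lysosomal genes tested, 37 rose and 2 fell at an adjusted p under 0.05 in the edgeR quasi-likelihood test. Over all 18563 genes 70% passed, 35.6% higher and 34.4% lower. The lysosomal genes that passed thus lay mostly on the higher side, while those of the whole table were split about evenly. Their median log2 fold change was 0.94 against 0.06 over all genes, and 21 of them rose at least 2-fold, which 18.5% of all genes did. All 39 calls held in every alternative analysis that gave a value for them.

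Proteases digest proteins in the lysosome. Of 11 tested, 10 rose and none fell, with a median log2 fold change of 1.31. The aspartic protease CTSD was at 117, 118 and 123 CPM in the 3 cycling libraries and at 307, 289.5 and 288 CPM in senescent cells, without overlap, a log2 fold change of 1.31. Another gene overlaps 41.71% of its exon length on the same strand, so its level is uncertain. The cysteine cathepsin CTSF (1.58) and the tripeptidyl peptidase TPP1 (1.63) rose by more, as did CTSO (1.69), while CTSL (0.56) and CTSZ (0.37) rose by less. CTSA, a carboxypeptidase that also shields NEU1 and GLB1 from degradation, rose by 1.46 (28.48% of its exon length overlaps genes on the other strand), CTSB by 1.10 and the asparaginyl endopeptidase LGMN by 0.88. CTSK, best known from bone-resorbing cells, had the largest value (2.60, SE 0.246) at a low level, from 0.483, 0.792 and 0.588 CPM to 3.01, 4.45 and 3.99 CPM. CTSS, at 1.04 to 1.25 CPM in cycling cells and 1.25 to 1.89 in senescent cells, did not pass (0.55, adjusted p = 0.0905).

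Glycosidases cut sugars from glycoproteins, glycolipids and glycosaminoglycans. Of 11, 9 rose and 1 fell, with a median of 1.18. IDUA, which acts on dermatan and heparan sulfate, was at 24.1, 19.4 and 22.1 CPM in cycling cells and at 98.7, 105 and 103 CPM in senescent cells, which is 2.23 on the log2 scale (SE 0.0918, adjusted p = 1.62e-12 in edgeR). GAA, the glycogen-degrading alpha-glucosidase whose promoter holds the full palindrome, went from 34.4, 34.7 and 34.2 to 150.2, 146 and 147 CPM, a rise of 2.10 (SE 0.0451, adjusted p = 8.16e-46). FUCA1, an alpha-fucosidase, went from 9.17, 9.09 and 8.75 to 37.6, 33.7 and 35.8 CPM (1.99, SE 0.0759, adjusted p = 8.02e-33). In none of these genes did the groups overlap. HEXA (1.30), MANBA (1.25), NEU1 (1.18), MAN2B1 (1.13) and NAGLU (1.04) rose at least 2-fold as well.

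GLB1, the gene of the beta-galactosidase used to stain senescent cells, rose less than most of the other glycosidases. It was at 65.8, 62.8 and 64.4 CPM in cycling cells and at 99.997, 83.9 and 88.1 CPM in senescent cells, a rise of 0.50 (SE 0.0490, adjusted p = 7.39e-14 in edgeR). The groups did not overlap. GLA, an alpha-galactosidase of glycolipids, did not pass (0.09, adjusted p = 0.255). GUSB, the beta-glucuronidase, fell, from 55.6, 55.8 and 57.9 CPM to 26.0, 25.4 and 28.1 CPM, and its value of -1.09 (SE 0.0628, adjusted p = 6.73e-24) made it the only member that fell at least 2-fold, as 7.56% of all genes did. By name, GUSB has 19 pseudogene copies among the genes of the count table, with which reads could be shared, so its level is uncertain.

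All 4 enzymes that take sulfate from sulfated lipids and glycosaminoglycans rose, ARSA by 1.83, SGSH by 0.87, IDS by 0.73 and ARSB by 0.24. Of the lipid and thioester hydrolases, 3 of 4 rose, namely the sphingomyelinase SMPD1 (1.26), the ceramidase ASAH1 (1.10) and the cholesteryl ester lipase LIPA (0.79). PPT1, which removes palmitate from proteins, fell, from 186, 191 and 192 CPM to 137, 125 and 131 CPM (-0.53, SE 0.0395, edgeR adjusted p = 7.26e-19). Of the exon length of PPT1, 23.37% overlaps genes on the other strand, and whether counting used strand is not given in the sources used here. Both activator proteins rose. PSAP went from 821, 829 and 839 CPM to 3097, 2863 and 2977 CPM (1.84, SE 0.0339, adjusted p = 2.70e-49), and GM2A, which presents ganglioside to HEXA, rose by 1.25. PSAP alone made up much of the summed level, and without it the other 43 genes summed to 3786 CPM in cycling and 7104 CPM in senescent cells on average.

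Among the 8 membrane and cholesterol-export genes, 7 rose and none fell, with a median of 0.67. The values were 1.03 for LAMP1 and 0.60 for LAMP2, the main glycoproteins of the lysosomal membrane, 0.94 for the cholesterol exporter NPC1 and 0.71 for its soluble partner NPC2. The tetraspanin CD63 rose by 0.71, SCARB2, the receptor that carries glucocerebrosidase, by 0.64 and the calcium channel MCOLN1 by 0.48. CLN3, at 0.620 to 1.21 CPM in these libraries, did not pass (0.41, adjusted p = 0.237).

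The transcription factors differed less between the states than most of the enzymes. In GENCODE 29 (GRCh38) TFEB lies at chr6:41683978-41736259 (- strand), TFE3 at chrX:49028726-49043486 (- strand) and MITF at chr3:69739435-69968337 (+ strand). TFEB was at 11.6, 12.4 and 12.5 CPM in cycling cells and at 17.98, 17.7 and 17.03 CPM in senescent cells, a rise of 0.52 (SE 0.0913, edgeR adjusted p = 8.89e-07). TFE3 was at 115, 111 and 116 CPM and at 128, 127 and 121 CPM, a rise of 0.14 (SE 0.0403, adjusted p = 0.00211). Neither showed overlap between the groups. MITF was at 23.4, 28.9 and 27.9 CPM and at 28.3, 26.7 and 28.2 CPM, which overlapped, and its log2 fold change was 0.05 (SE 0.0746, adjusted p = 0.552, 2 SE either side -0.10 to 0.20).

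**Figure D1:**
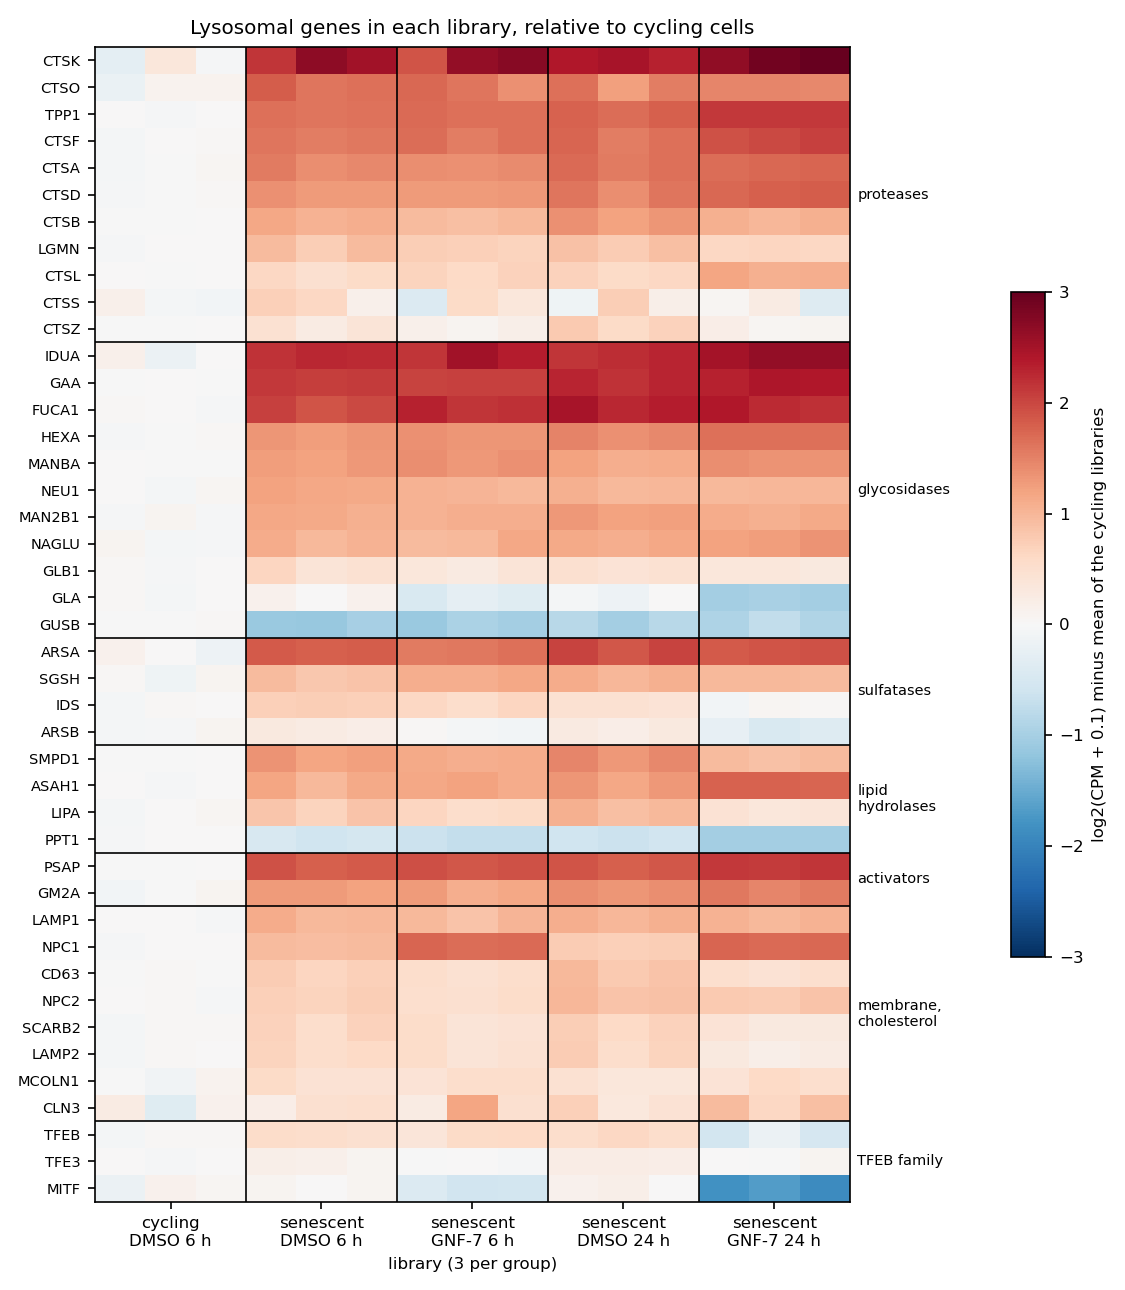
Level of each of the 43 lysosomal genes tested (lines, grouped by role) in each of the 15 libraries (columns, 3 per group), as log2(CPM + 0.1) minus the gene's mean in the cycling libraries, coloured from -3 to 3. In senescent cells 37 genes rose and GUSB and PPT1 fell, and MITF and TFEB have their lowest values after 24 h of GNF-7.

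Set beside the promoter motif, the 9 genes with CACGTG had a median log2 fold change of 1.18 in senescence and 8 of them rose. The 21 tested genes with a promoter but no CACGTG had a median of 0.64, with 17 higher and 2 lower. These 21 include TFEB, TFE3 and MITF. No such split was made over all genes. The 3 largest rises among genes with a matched promoter came from both sides, since IDUA and FUCA1 lack the motif and GAA holds it.

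GNF-7 for 6 h was compared with vehicle for 6 h, both in senescent cells. The lysosomal genes moved little: 20 of 43 were called, 3 higher and 17 lower, against 39.3% of all genes (17.9% higher, 21.4% lower). Their median log2 fold change was -0.07 against 0.01 over all genes, and none changed 2-fold, as 4.16% of all genes did upward and 0.566% downward. With a filter that kept genes at a mean of at least 5 CPM, which also changed the scaling, the split was 9 higher and 14 lower of 40 tested. Of all 11234 genes kept by that filter, 6042 were called, 3035 higher and 3007 lower.

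NPC1, at chr18:23506184-23586898 (- strand, GRCh38), had the largest change. This membrane protein passes cholesterol out of the lysosome, and its level went from 368, 362 and 369.8 CPM in vehicle to 643, 614 and 617 CPM with GNF-7, a rise of 0.77 (SE 0.0338, edgeR adjusted p = 1.19e-28) with no overlap. The other 2 rises were small. FUCA1 was at 44.8, 40.4 and 41.3 CPM with GNF-7 (0.24, SE 0.0626, adjusted p = 0.00140), and SGSH, the heparan N-sulfatase, went from 87.1, 78.02 and 81.7 to 94.9, 96.0 and 99.9 CPM (0.24, SE 0.0471, adjusted p = 3.30e-05).

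MITF fell most, from 28.3, 26.7 and 28.2 CPM to 19.9, 17.9 and 18.1 CPM (-0.57, SE 0.0765, edgeR adjusted p = 5.36e-09). GLA followed, from 31.3, 29.1 and 31.2 to 20.8, 23.9 and 22.4 CPM (-0.45, SE 0.0687, adjusted p = 1.95e-07). In both genes the highest GNF-7 library lay below the lowest vehicle library. ARSB, which removes sulfate from dermatan and chondroitin sulfate, went from 36.3, 35.1 and 34.3 to 30.2, 28.7 and 27.9 CPM (-0.28, adjusted p = 0.000221). CTSZ, a carboxypeptidase, went from 284, 247 and 273 to 232, 218 and 235 CPM (-0.23, adjusted p = 0.000279). TFE3 fell by 0.14 (SE 0.0401, adjusted p = 0.00261), while TFEB, at 15.8, 18.1 and 18.5 CPM with GNF-7, overlapped vehicle, with a log2 fold change of -0.01 (adjusted p = 0.963, 2 SE either side -0.18 to 0.17).

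By role, 3 of 11 proteases fell and none rose, 3 of 11 glycosidases fell and 1 rose, 2 of 4 sulfate-removing enzymes fell and 1 rose, 3 of 4 lipid and thioester hydrolases fell, and 4 of 8 membrane genes fell and 1 rose. Neither activator gene was called. The falls beyond those described were between -0.22 (ARSA) and -0.14 (LAMP2, SMPD1). Of the 17 falls, 4 lost their call when single libraries were left out. GLB1 (-0.16) was at -0.09 when replicate 1 of the vehicle was dropped and at -0.12 when GNF-7 replicate 2 was. LGMN (-0.17) was at -0.14 without vehicle replicate 1 and at -0.15 without either vehicle replicate 3 or GNF-7 replicate 3. SMPD1 was at -0.09 without vehicle replicate 1. LAMP2 lost its call without vehicle replicate 1 (-0.10) or 3 (-0.14) and without GNF-7 replicate 2 (-0.09) or 3 (-0.13), and also with total counts (-0.12) and limma voom (-0.14). With the 5 CPM filter LGMN (-0.12), SMPD1 (-0.09) and LAMP2 (-0.08) were not called.

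**Figure D2:**
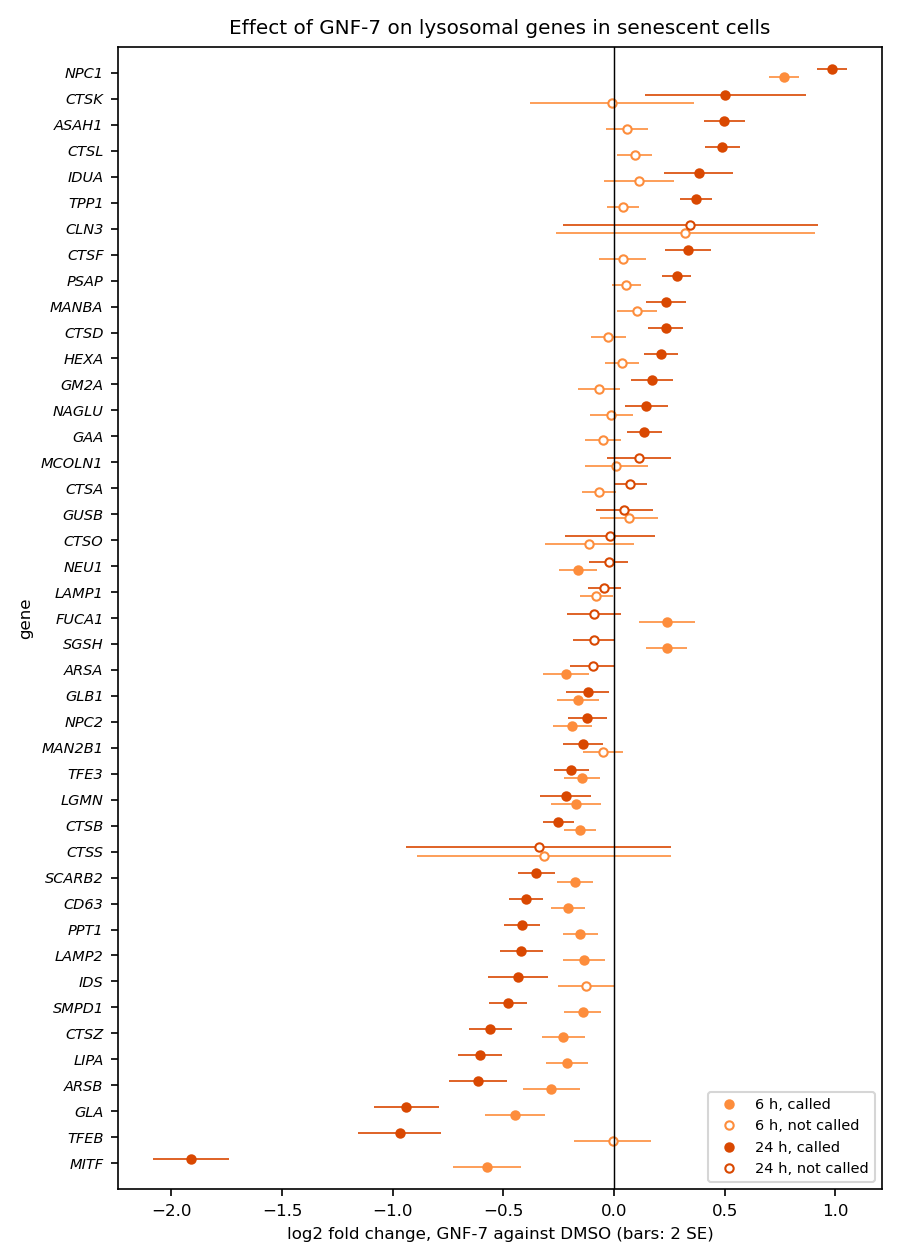
Log2 fold change of each lysosomal gene with GNF-7 against vehicle in senescent cells at 6 h and at 24 h, with bars of 2 SE; filled points passed an adjusted p of 0.05. NPC1 lies farthest to the right at both times (0.77 and 0.99) and MITF farthest to the left (-0.57 and -1.91), while TFEB is near 0 at 6 h (-0.01) and at -0.97 at 24 h.

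After 24 h of GNF-7 the lysosomal genes moved in both directions. Of the 43, 32 were called, 14 higher and 18 lower, against 58.9% of all genes (29.3% higher, 29.7% lower), none rose 2-fold (10.3% of all genes did), and the median log2 fold change was -0.09 against 0.04 over all genes. With the 5 CPM filter 16 were higher and 14 lower of 40, where 4154 of all 11234 genes kept were higher and 3988 lower. The median of the lysosomal genes was then 0.0092, against 0.010 over all genes. Without that filter, leaving out 1 library moved the median of the lysosomal genes between -0.131 and -0.040.

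All 3 transcription factors fell. MITF was at 29.3, 29.9 and 26.7 CPM in vehicle and at 7.45, 8.22 and 7.14 CPM with GNF-7, 3.76-fold lower (-1.91, SE 0.0857, edgeR adjusted p = 8.62e-29), and it was the only member that fell at least 2-fold, as 3.92% of all genes did. TFEB was at 17.6, 18.7 and 17.7 CPM and at 8.25, 10.8 and 8.57 CPM, 1.96-fold lower (-0.97, SE 0.0938, adjusted p = 6.07e-14), which put it below its level in cycling cells (11.6 to 12.5 CPM). TFE3 went from 134, 133 and 132 to 114, 114 and 121 CPM (-0.19, SE 0.0401, adjusted p = 3.31e-05), a level that overlapped the cycling libraries. In no gene of the family did the GNF-7 and vehicle libraries overlap, though overlap was not counted over all genes. These are counts per gene, and do not separate the isoforms that MITF and TFEB are known to have.

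**Figure D3:**
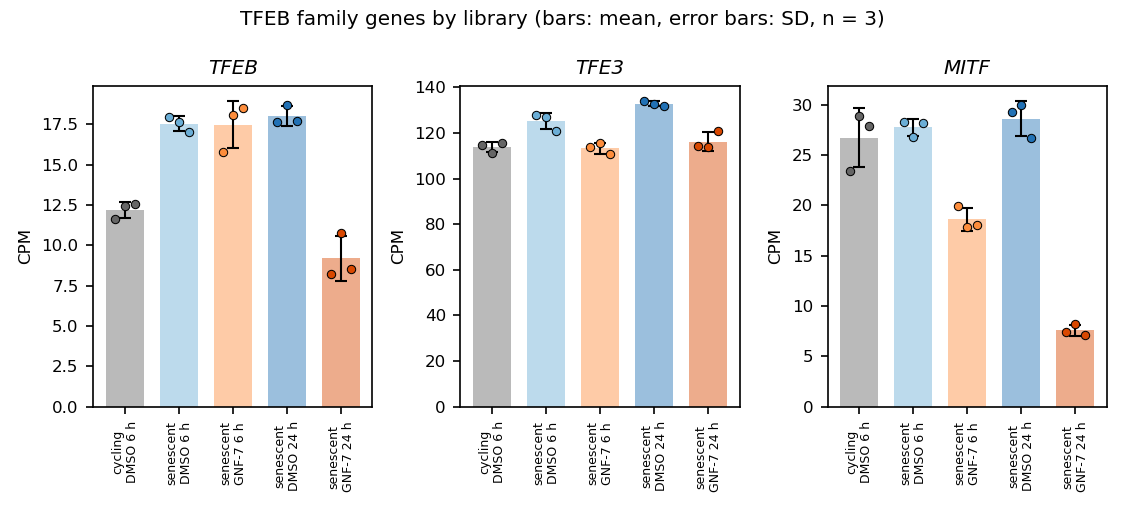
CPM of TFEB, TFE3 and MITF in the 5 groups, as bars of the mean with SD (n = 3) and a point for each library, on linear axes that start at 0. MITF is at 7.14 to 8.22 CPM after 24 h of GNF-7 and at 17.9 CPM or more in every other library, and TFEB is lowest in the same group (8.25 to 10.8 CPM).

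NPC1 again rose most, from 322, 313 and 319 CPM to 642, 617 and 631 CPM (0.99, SE 0.0340, edgeR adjusted p = 1.29e-34). The GNF-7 libraries of 6 h and 24 h overlapped in their NPC1 level. ASAH1 went from 90.2, 80.3 and 87.8 to 123, 122 and 121 CPM (0.50, SE 0.0466, adjusted p = 1.79e-14), CTSL, a cysteine endopeptidase, from 191, 177 and 183 to 269, 249 and 254 CPM (0.49, SE 0.0394, adjusted p = 4.76e-17), and IDUA from 97.0, 101 and 106 to 124, 136 and 136 CPM (0.38, SE 0.0780, adjusted p = 0.000547). In these 4 genes every GNF-7 library lay above every vehicle library. CTSL has 6 pseudogene copies. Of the exon length of IDUA, 13.35% overlaps SLC26A1 on the other strand, as 5.979% of that of NPC1 overlaps RMC1. The levels of CTSL, IDUA and NPC1 are thus uncertain.

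The other rises were in TPP1 (0.37), CTSF (0.33), PSAP (0.28), CTSD (0.23), MANBA (0.23), HEXA (0.21) and GM2A (0.17), and, with calls that 1 library decided, in CTSK, NAGLU and GAA. CTSK (0.50) was at 0.45 when replicate 3 of the vehicle was dropped and at 0.40 when GNF-7 replicate 3 was, and did not pass in either. NAGLU (0.15) was at 0.12 without vehicle replicate 2 and 0.10 without GNF-7 replicate 3, and GAA (0.14) was at 0.09 without vehicle replicate 2. Of 11 proteases, 5 rose and 3 fell, and of 11 glycosidases 5 rose and 3 fell. Both activator genes rose.

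Outside the transcription factors, 3 of 4 lipid and thioester hydrolases, 2 of 4 sulfate-removing enzymes and 4 of 8 membrane genes fell. GLA went from 27.4, 26.0 and 28.8 to 14.1, 14.71 and 14.0 CPM (-0.94, SE 0.0731, edgeR adjusted p = 1.17e-17), and ARSB from 36.0, 34.1 and 36.4 to 25.1, 21.5 and 22.8 CPM (-0.62, SE 0.0654, adjusted p = 1.64e-12). In both the GNF-7 libraries lay below those of cycling cells as well. LIPA (-0.61), SMPD1 (-0.48) and PPT1 (-0.41) fell, while ASAH1 was the lipid hydrolase that rose. IDS, the iduronate sulfatase, fell by 0.43, LAMP2 by 0.42, CD63 by 0.40, SCARB2 by 0.35 and NPC2 by 0.12, while LAMP1 did not pass (-0.04). Among proteases CTSZ (-0.56), CTSB (-0.25) and LGMN (-0.22) fell, and MAN2B1 fell by 0.14.

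GLB1 was at 89.7, 84.9 and 88.7 CPM in vehicle and at 81.7, 81.3 and 79.5 CPM with GNF-7, a fall of 0.12 (SE 0.0482, edgeR adjusted p = 0.0295). It did not pass when replicate 1 (-0.11) or 3 (-0.12) of the vehicle or replicate 3 of GNF-7 (-0.11) was dropped. NPC2 did not pass without vehicle replicate 1 (-0.08) or GNF-7 replicate 2 (-0.10). Neither passed with total counts (both -0.09). With genes kept at a mean of at least 5 CPM, the calls of GLB1 and NPC2 (both -0.02), LGMN (-0.12) and MAN2B1 (-0.04) were lost.

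Senescence and GNF-7 at 24 h share no library and can be set side by side. Of the 37 genes that rose in senescence, 14 rose with GNF-7, 15 fell and 8 were not called. Of all genes that rose in senescence, 44% rose with GNF-7 at 24 h, 20% fell and 36% were not called. PPT1 was lower in both comparisons, and GUSB, lower in senescence, did not pass with GNF-7 (0.05, 2 SE either side -0.08 to 0.17). GLA and MITF, not called in senescence, were among the largest falls with GNF-7. Over the 43 genes the values of both comparisons had a Pearson r of 0.469, which is a description across genes that are not independent replicates. No such r was computed over all genes. Of all genes that fell in senescence, 51.9% fell with GNF-7 at 24 h and 18.5% rose, so like directions were common in the whole table too. Genes with CACGTG in the promoter had a median of 0.11 with GNF-7 at 24 h (3 higher, 1 lower of 9) and those without it -0.19 (5 higher, 14 lower of 21). The genes without it include TFEB, TFE3 and MITF, which all fell. The 13 genes with no matched promoter are in neither set. No such split was made over all genes, and the part of the motif in these values was not tested.

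**Figure D4:**
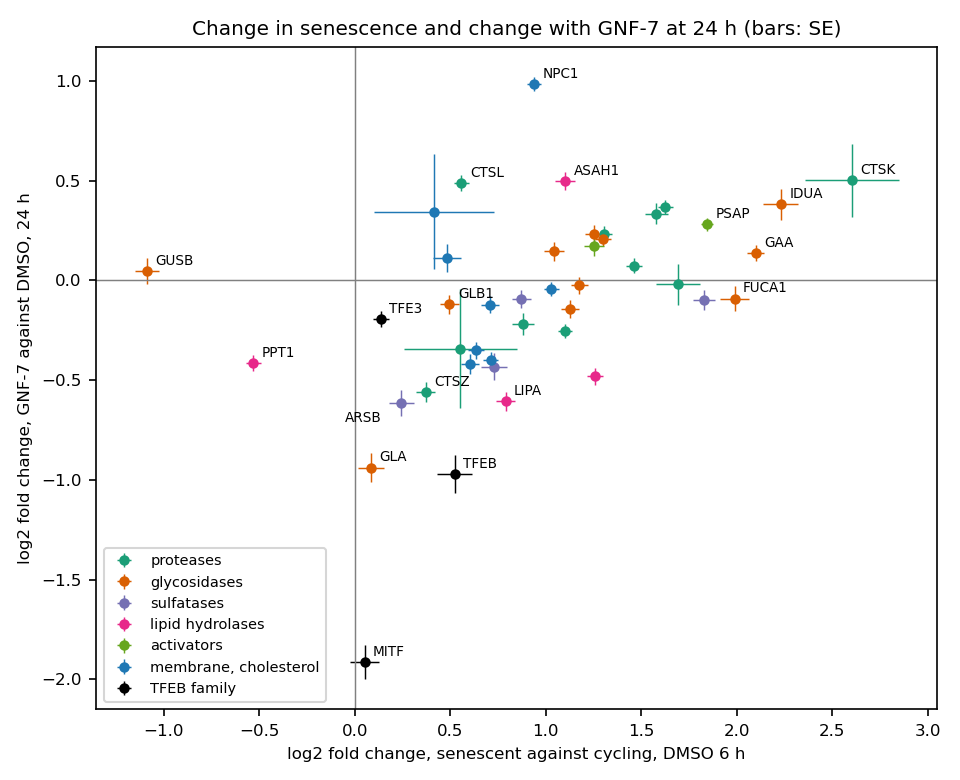
Log2 fold change in senescence (horizontal, both states at 6 h of vehicle) and with GNF-7 at 24 h (vertical, against vehicle at 24 h) for the 43 lysosomal genes tested, coloured by role, with bars of 1 SE. Most genes lie to the right of 0, and those at the right are split above and below the horizontal line, with NPC1 highest (0.99) and MITF lowest (-1.91).

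Whether the GNF-7 effect differed between times was tested as the difference of the 24 h and 6 h effects, which makes up for the separate vehicle groups. Of 43 lysosomal genes 25 were called, 11 with a more positive and 14 with a more negative effect at 24 h, against 30.8% of all genes (12.8% and 18%). Among them MITF alone differed at least 2-fold, as 2.93% of all genes did upward and 2.06% downward. The largest differences were those of MITF (-1.34, SE 0.116, edgeR adjusted p = 5.48e-15) and TFEB (-0.96, SE 0.128, adjusted p = 8.34e-09). TFE3 did not pass (-0.05, adjusted p = 0.582). GLA (-0.49, adjusted p = 7.27e-05) and LIPA (-0.39, adjusted p = 4.95e-06) followed, and LIPA was at 86.9, 80.9 and 83.1 CPM after 6 h and at 75.8, 71.0 and 71.7 CPM after 24 h of GNF-7.

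On the positive side stood ASAH1 (0.44, SE 0.0666, edgeR adjusted p = 2.11e-07), CTSL (0.40, SE 0.0559, adjusted p = 3.84e-08), TPP1 (0.33, adjusted p = 2.14e-07) and CTSF (0.30, SE 0.0745, adjusted p = 0.00128). TPP1 was at 307, 300.2 and 296 CPM after 6 h of GNF-7 and at 413, 412 and 411 CPM after 24 h. CTSF was at 60.6, 54.8 and 59.5 CPM and at 72.0, 75.3 and 78.3 CPM. In both the later GNF-7 libraries lay above the earlier ones. By role, 5 proteases had a more positive and 1 a more negative effect at 24 h, both activator genes a more positive one, and 3 of 4 sulfate-removing and 3 of 4 lipid and thioester hydrolases a more negative one. At the level of calls, 15 genes were lower at both times and NPC1 higher at both, and 13 of the 14 genes higher at 24 h had not been called at 6 h. Pairs of calls at 6 h and 24 h were not counted over all genes. Whether these counts are particular to the lysosomal genes is thus not known.

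Vehicle at 24 h was compared with vehicle at 6 h in senescent cells, a control for time in culture. Of 43 lysosomal genes 20 were called, 17 higher and 3 lower, against 18.5% of all genes (9.26% higher, 9.29% lower), with a median log2 fold change of 0.07 against 0.01 over all genes. FUCA1 went from 37.6, 33.7 and 35.8 to 50.3, 43.8 and 46.6 CPM (0.39, SE 0.0625, edgeR adjusted p = 1.84e-06), CTSZ from 284, 247 and 273 to 355, 307 and 333 CPM (0.31, adjusted p = 1.87e-05) and CTSD from 307, 289.5 and 288 to 363, 315 and 361 CPM (0.23, adjusted p = 1.20e-05). NPC2, from 94.4, 91.9 and 95.2 to 115, 105 and 106 CPM (0.21, adjusted p = 0.000233), passed in every fit but that on total counts (0.10). The later libraries of these 4 genes all lay above the earlier ones.

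IDS fell from 32.9, 33.6 and 32.8 to 27.4, 27.3 and 26.6 CPM (-0.29, SE 0.0649, edgeR adjusted p = 0.000670) and NPC1 from 368, 362 and 369.8 to 322, 313 and 319 CPM (-0.21, SE 0.0340, adjusted p = 4.63e-06). NEU1 (-0.15) did not pass when replicate 1 of the earlier or replicate 2 of the later group was dropped, at -0.13 in each. None of TFEB (0.04), TFE3 (0.08) and MITF (0.05) was called, and GLB1 was at -0.05 (adjusted p = 0.577).

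The direction of these small changes rested on the scaling. With scaling by total counts alone the median of all genes moved from 0.01 to -0.10, and 3 lysosomal genes were called higher and 10 lower. Of all 18563 genes, 627 were called higher and 4392 lower in that fit, so the shift downward was general. Of the 17 rises, 9 held when each library was left out in turn. Those of TPP1, HEXA, GUSB, MAN2B1, ARSA, LIPA, SMPD1 and ASAH1 (0.12 to 0.19) did not. They were at 0.10 to 0.18 where lost in these fits. LIPA was lost without vehicle 6 h replicate 2, HEXA without that or 24 h replicate 1, and TPP1 without 24 h replicate 1 or 3. SMPD1, ASAH1, GUSB and ARSA were lost without 6 h replicate 2 or 24 h replicate 1 or 3. GUSB was also lost without 6 h replicate 1, and ARSA without 6 h replicate 3. MAN2B1 was lost without any senescent vehicle library other than 24 h replicate 2. It was also lost without cycling replicate 3, replicate 2 or 3 of GNF-7 at 6 h or replicate 3 of GNF-7 at 24 h. On dropping replicate 2 of vehicle at 6 h, 13 lysosomal genes in all were called, against 2709 of all 19133 genes tested. CTSD, CTSZ and FUCA1 rose under every alternative. The same total-count scaling moved the median of all genes in senescence from 0.06 to 0.19 and that of the lysosomal genes from 0.94 to 1.07.

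A further 78 genes of the pathway, 75 of them tested, give the surroundings. In senescence 53 rose and 5 fell (median 0.48), where 35.6% of all genes rose and 34.4% fell. With GNF-7 at 6 h 10 rose and 30 fell, against 17.9% and 21.4% of all genes, and at 24 h 19 rose and 32 fell, against 29.3% and 29.7%. The counts of the lists within these 75 are to be read against the same shares. Of 25 other hydrolases and cofactors, 21 rose and none fell in senescence, and 1 rose and 10 fell at 6 h and 5 rose and 14 fell at 24 h of GNF-7. ACP5, the tartrate-resistant acid phosphatase, was at 1.17, 1.41 and 1.24 CPM in cycling and 11.2, 10.1 and 8.67 CPM in senescent cells (2.96), and went from 11.9, 11.3 and 13.0 to 27.2, 24.2 and 28.8 CPM with GNF-7 at 24 h (1.15, edgeR adjusted p = 7.60e-17). GALNS, a sulfatase of keratan sulfate, rose by 1.96 in senescence. The hyaluronidase HYAL2 fell with GNF-7 at both times, to 33.7, 32.6 and 33.3 CPM at 6 h (-1.04) and 25.8, 25.3 and 27.9 CPM at 24 h (-1.43). SUMF1, which activates sulfatases, fell by 0.25 at 6 h.

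Of 20 other membrane genes, 14 rose and 3 fell in senescence, led by SIDT2 (1.42) and the sialic acid exporter SLC17A5 (1.33), and 2 rose and 9 fell at 24 h of GNF-7, among them LAPTM4B (-0.84) and the peptide transporter ABCB9 (-0.80). At 6 h of GNF-7, 2 rose and 10 fell, with SLC17A5 at -0.60. The fall of the ion channel TPCN2 at 6 h (-0.35) did not pass without vehicle replicate 3 (-0.32) or GNF-7 replicate 1 (-0.29) or 2 (-0.33). Of 11 genes for delivery of hydrolases by mannose 6-phosphate and sortilin, 6 rose and 2 fell in senescence, with GNPTG at 0.97 and the adaptor GGA2 at -0.91. GNPTAB, whose product makes the mannose 6-phosphate tag, fell with GNF-7, from 124, 119 and 115 to 66.1, 58.6 and 61.8 CPM at 24 h (-0.94, edgeR adjusted p = 1.72e-23) and by 0.25 at 6 h. AP1G1, a subunit of the adaptor for vesicles that carry the tagged enzymes, fell by 0.47 and 0.55 at the respective times. Of the 11 delivery genes, 1 rose and 5 fell at 6 h and 4 rose and 5 fell at 24 h. Among the rises, also named after their values were seen, were SORL1, from 1.24, 1.16 and 1.20 to 4.07, 4.55 and 3.15 CPM at 24 h (1.70, and 1.18 at 6 h), and IGF2R, from 568, 567 and 564 to 690.1, 671 and 689 CPM (0.27).

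Of 4 tested inhibitors of cysteine proteases, 3 rose in senescence, among them cystatin C (CST3, 0.99) and cystatin B (CSTB, 0.18). With GNF-7 2 of the 4 rose and 1 fell at 6 h, and 3 rose and 1 fell at 24 h (median 1.55). CST3 fell by 0.15 at 6 h and 0.24 at 24 h, and CSTB rose by 0.19 at 24 h. The largest rises were in 2 genes of low level, named after their values were seen. CSTA went from 0.510, 0.917 and 1.32 to 7.48, 5.88 and 7.54 CPM at 24 h (2.95, and 1.04 at 6 h), and CST7 from 0.638, 0.529 and 0.426 to 3.87, 3.83 and 4.45 CPM (2.91, and 2.24 at 6 h). Of 15 genes listed for the Rag and mTORC1 control of TFEB, the transcription factor TFEC among them, 9 rose and none fell in senescence. The highest of these rises was 3.76, in a gene below the mean of 5 CPM asked of named genes. It was the only one of at least 2-fold, as 18.5% of all genes were. With GNF-7, 4 of the 15 rose and 4 fell at 6 h, and 5 rose and 3 fell at 24 h. RRAGC, a Rag GTPase, was at 30.5, 31.0 and 31.2 CPM in vehicle and 47.2, 41.0 and 42.3 CPM with GNF-7 at 6 h (0.49), and at 32.5, 32.0 and 32.5 and 61.9, 59.7 and 62.1 CPM at 24 h (0.92, edgeR adjusted p = 5.19e-22). RRAGD went from 5.14, 5.92 and 6.58 to 12.6, 9.68 and 10.5 CPM at 24 h (0.90, adjusted p = 2.13e-08). Folliculin (FLCN), which activates RRAGC and RRAGD, rose by 0.89 in senescence, and LAMTOR5, a subunit of the Rag anchor, fell by 0.45 at 6 h.

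Chosen after their values were seen, FLCN rose by 0.40 and 0.63 with GNF-7 at 6 h and 24 h, its partner FNIP1 by 0.38 and 0.39, and MTOR fell by 0.32 and 0.44. In the test between times, the GNF-7 effect on RRAGC, RRAGD, ACP5, NAGPA and CSTB was more positive at 24 h (0.43, 0.65, 0.95, 0.32 and 0.27) and that on GNPTAB, LAPTM4B and ABCB9 more negative (-0.69, -0.56 and -0.87). Over time in vehicle 11 of the 75 rose and 13 fell, against 9.26% and 9.29% of all genes. GNPTG (0.31) and the peptidase DPP7 (0.25) rose and IGF2R, a receptor for mannose 6-phosphate (-0.29), and the cystine exporter CTNS (-0.28) fell under every alternative. CST3 (0.21) and CSTB (0.17) did not pass with total counts (0.09 and 0.06). FNIP2 (-0.30), LAMTOR2 (0.20), SUMF1 (0.19) and TPCN2 (-0.37) lost their calls when vehicle libraries of 6 h or 24 h were left out singly. Such libraries were 6 h replicate 2 (FNIP2 -0.28, LAMTOR2 0.16, SUMF1 0.17, TPCN2 -0.39) and 24 h replicate 1 (-0.24, 0.16, 0.13 and -0.38 in that order). FNIP2 was also lost without 6 h replicate 1 (-0.27) or 24 h replicate 3 (-0.25), LAMTOR2 without replicate 3 of either time (both 0.21), and TPCN2 without 6 h replicate 3 (-0.34) or 24 h replicate 2 (-0.38) or 3 (-0.35).

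**Figure D5:**
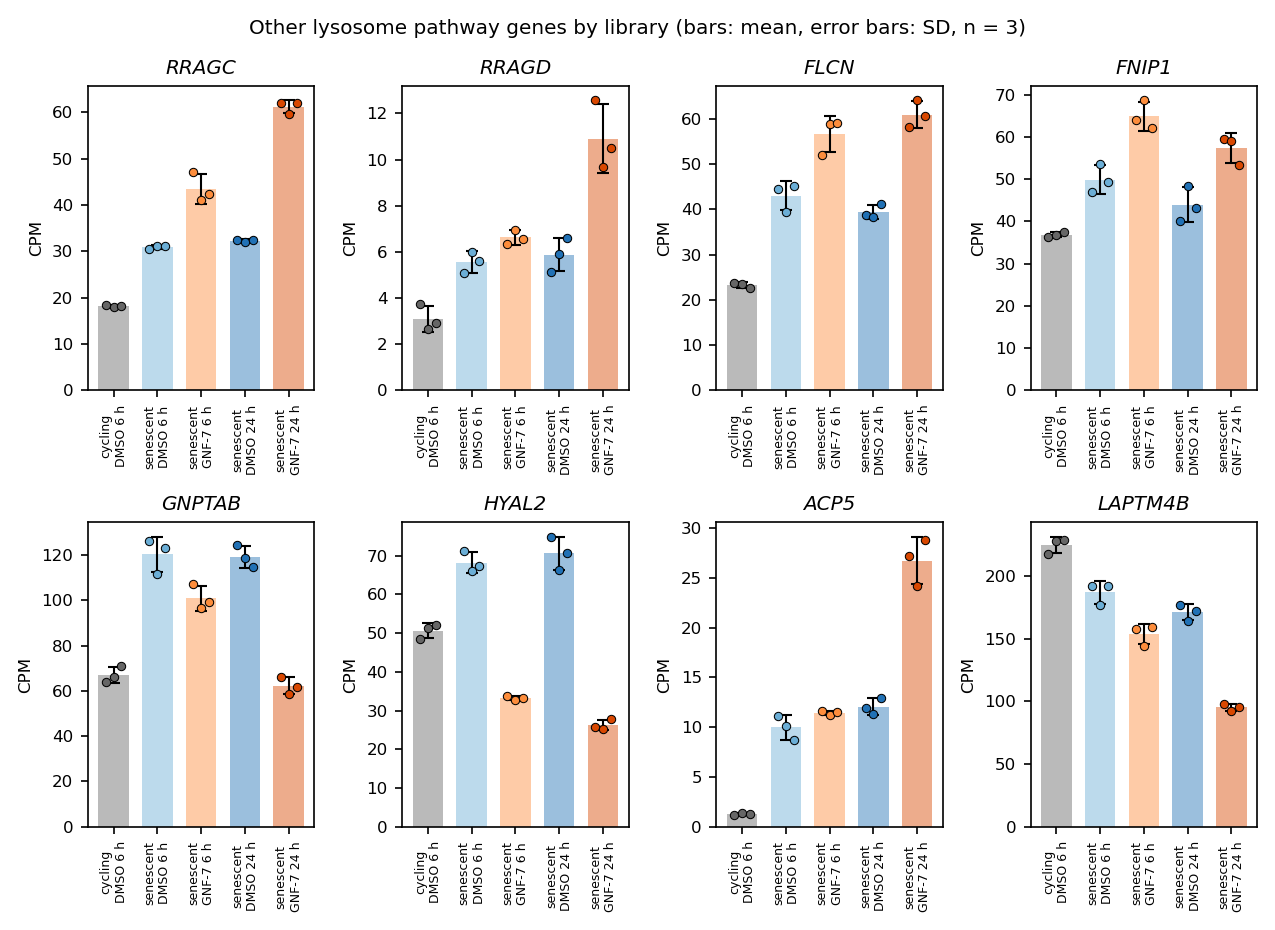
CPM of RRAGC, RRAGD, FLCN, FNIP1, GNPTAB, HYAL2, ACP5 and LAPTM4B in the 5 groups, as bars of the mean with SD (n = 3) and a point for each library, on linear axes that start at 0. RRAGC (59.7 to 62.1 CPM) and ACP5 (24.2 to 28.8 CPM) are highest after 24 h of GNF-7, and HYAL2 (25.3 to 27.9 CPM) and LAPTM4B (92.4 to 98.1 CPM) are lowest there.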

How the data were processed

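A stranded mRNA kit was used, per the labels' protocols. Reads were processed with bcl2fastq 2.20.0.422, STAR 2.7.9a and featureCounts 1.5.1 on GRCh38, per the submitters' processing notes. The annotation release and the strand setting are not given in the sources used here. The authors deposited raw counts per Ensembl gene, of 60673 lines, 3 of which, a broken entry, were left out. Every column was matched to its library by name.

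Counts were tested with edgeR 4.0.16 (R 4.3.3) quasi-likelihood after filterByExpr and TMM scaling, in a fit of all 15 libraries by group, with Benjamini-Hochberg adjustment over the 18563 genes tested and calls at 0.05. CPM used TMM-scaled sizes, SE is the log2 fold change divided by the square root of F, and log2 fold changes are per contrast of groups. Alternatives were RLE and total-count scaling, mitochondrial genes left out, no filter or a mean of 5 CPM, DESeq2 1.42.0, limma voom 3.58.1, a replicate block, only the groups compared, and each library left out.

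The 44 genes and the further lists were chosen with earlier results of these data known. Genes named with values per library were GLB1, the TFEB family and up to 4 called rises and falls per comparison at a mean of at least 5 CPM, and of the further genes up to 2 called per list, of which 1 is not reported here. Exon lengths and overlaps are from GENCODE 29, and promoters from RefSeq (GRCh38.p14). Same-strand exon overlap with another gene was found for 11 of the 44 and other-strand overlap for 15. Pseudogene copies, matched by gene name only, were found for 6 (CTSL, LGMN, GUSB, FUCA1, IDS and GM2A). The levels of all these genes are uncertain. Overlap of libraries between groups was not counted over all genes. In genes named for the largest called changes, a lack of overlap follows largely from that choice. Intervals cover the spread between libraries only.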

Additional observations from a re-analysis of the deposited data

Results flagged for a closer look

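In a test of the difference itself (edgeR), the log2 effect of GNF-7 was not the same at both times for 25 of the 43 lysosomal genes at an adjusted p under 0.05. Among proteases the 24 h effect minus the 6 h effect was CTSA (0.14), CTSD (0.26), CTSF (0.30), CTSL (0.40), TPP1 (0.33) and CTSZ (-0.33). Among glycosidases the values were GAA (0.19), HEXA (0.18), GLA (-0.49) and FUCA1 (-0.33). Among the enzymes that remove sulfate they were SGSH (-0.33), IDS (-0.31) and ARSB (-0.33). Among lipid and thioester hydrolases they were PPT1 (-0.26), LIPA (-0.39), SMPD1 (-0.34) and ASAH1 (0.44). The activator genes had positive differences, PSAP (0.23) and GM2A (0.24). Membrane and cholesterol-export genes stood at NPC1 (0.22), LAMP2 (-0.28), CD63 (-0.19) and SCARB2 (-0.17). In the TFEB family the differences were TFEB (-0.96) and MITF (-1.34). FUCA1 and SGSH, called higher at 6 h, were not called at 24 h (both -0.09). Such a difference also holds any change of the vehicle between times. From 6 h to 24 h, vehicle was called higher in FUCA1 (0.39), CTSZ (0.31) and SGSH (0.19) and lower in NPC1 (-0.21). It was not called in TFEB (0.04) or MITF (0.05). The GNF-7 libraries of 6 h and 24 h overlapped in FUCA1, CTSZ and NPC1, and did not in SGSH. The call of CTSA was lost in 14 of 24 alternatives (0.09 to 0.15), 9 of them fits that left out 1 library and the others RLE, DESeq2, no filter, mitochondrial genes left out and only the groups compared. That of HEXA was lost when replicate 2 of vehicle at 24 h was dropped (0.14). That of SCARB2 was lost at 6 h on dropping replicate 2 of the vehicle or replicate 1 of GNF-7 (both -0.13), and at 24 h on dropping replicate 1 of the vehicle (-0.14) or replicate 2 (-0.15) or 3 (-0.16) of GNF-7, and with the 5 CPM filter (-0.13). The other 22 calls held in each alternative. What sets the times apart was not tested.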

How the results depend on the processing

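Over 144 values of single lysosomal genes (those called, and the uncalled ones of GLB1 and the TFEB family) and 24 alternatives, 3337 kept their direction and call, 101 lost the call, 3 gained one and 13 changed sign. Of all 215 values, 79 were not called, and 30 of these were called in at least 1 alternative. The cause of these changes was not tested. In senescence the median of the lysosomal genes was 1.07 with total counts, 1.13 with genes kept at a mean of 5 CPM and 0.997 with only the groups compared. The median with GNF-7 at 24 h was 0.0092 with the 5 CPM filter. The median of the difference of the GNF-7 effects was -0.0058 without vehicle 6 h replicate 1. Over time in vehicle, 13 lysosomal genes were called with total counts (median -0.039) and 13 without vehicle 6 h replicate 2. Over all genes, 5019 of 18563 and 2709 of 19133 were called in the respective fits.

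With each library left out, the lysosomal genes called numbered 39 in senescence in each fit, 17 to 21 and 29 to 33 with GNF-7 at 6 h and 24 h, 23 to 26 for the difference and 13 to 20 over time in vehicle. Their medians were 0.918 to 0.944, -0.101 to -0.045, -0.131 to -0.040, -0.0058 to 0.061 and 0.031 to 0.103 in that order, and all genes called were 12381 to 13140, 6339 to 7361, 10109 to 11101, 5172 to 5750 and 2535 to 3570.

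TFEB with GNF-7 at 6 h, near 0 throughout, was at 0.0020 with RLE and with DESeq2, 0.0058 with total counts, 0.046 with the 5 CPM filter, 0.0055 with only the groups compared and, with single libraries left out, -0.053 to 0.059, with 0.0090 when replicate 1 of the vehicle was. With total counts the values over time in vehicle were -0.072 for TFEB, -0.026 for TFE3 and -0.064 for MITF. With each library left out GLB1 was at -0.036 to 0.094 in the difference of effects and at -0.099 to 0.031 over time, changing sign without replicate 1 of vehicle at 6 h, and MITF in senescence at -0.038 (without cycling replicate 1) to 0.105.

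Libraries with the same replicate number did not deviate together (correlations from -0.03 to 0.06). With a replicate block, 39, 23, 32, 27 and 21 lysosomal genes were called, and no call of a single lysosomal gene was lost. At 3 libraries per group, genes near 1 CPM, such as CLN3 and CTSS, had wide errors, and CTSH lay below the limit of testing.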
